A study of Homo sapiens with 12 samples.

Results

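The 42 genes described here are collagen chains and the enzymes that modify them, as far as the array of this series measured them with a probe set naming a single gene. They are 32 collagen chains, whose symbols follow the form COL4A1, and 10 proteins that modify, fold or cross-link collagen (P4HA1, P4HA2, P4HB, PLOD1, PLOD2, PLOD3, LOX, LOXL1, LOXL2 and SERPINH1), out of 11963 genes measured in all. Members were taken by symbol and not by measured change, though with earlier results of these data known. A gene with more than 1 probe set was represented by its set of highest mean across the 12 arrays, which applied to 26 members. The chains fall into 9 fibrillar chains, 6 chains of type IV, 3 chains of the basement membrane zone (types VII, XV and XVIII), 1 transmembrane chain and 13 others. The cells were RCC4, a line established from human clear cell kidney cancer and devoid of working VHL, carrying either a vector without VHL (Vec) or reconstituted VHL (VHL). Both lines spent 6 h in full DMEM (control) or in DMEM without cystine (deprived), with 3 arrays in each of the 4 groups, and the series' title concerns dependence of VHL-deficient cells on cystine. All groups share the RCC4 background and serum with antibiotics, and dialysed serum is named for the deprived medium alone. If the control serum was not dialysed, removal of cystine and dialysis of the serum cannot be told apart. A single line stands for each genotype, and the labels do not say whether it is a clone or a pool, so VHL and any other difference between the lines cannot be told apart. The labels call the arrays biological replicates without naming separate cultures, so p-values measure the spread between these samples, which may be technical.

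Collagens are secreted proteins in which chains rich in glycine and proline wind into a helix. Inside the endoplasmic reticulum, prolyl 4-hydroxylase (the catalytic subunits P4HA1 and P4HA2 with P4HB, which is also a protein disulfide isomerase) hydroxylates prolines that stabilise the helix, and the lysyl hydroxylases PLOD1, PLOD2 and PLOD3 modify lysines used for cross-links and sugars. SERPINH1, also called HSP47, is a chaperone of the folded helix, and the secreted amine oxidases LOX, LOXL1 and LOXL2 start cross-linking outside the cell. Fibrillar chains build the fibrils of connective tissue, and type IV chains build the sheet of the basement membrane on which kidney tubule cells rest. VHL lets a ubiquitin ligase recognise the hydroxylated alpha subunits of HIF, the hypoxia-inducible transcription factors, which are then degraded, and P4HA1, P4HA2, PLOD2 and LOX are textbook targets of HIF.

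Levels are log2 expression values as deposited, where 1 unit is a factor of 2 in signal. A gene was called when its limma adjusted p (Benjamini-Hochberg over all 11963 genes) was under 0.05. Array medians lay between 7.12 and 7.18, and the lower quartile of all gene means, 5.95, serves below as the mark for dim probe sets. The probe set of VHL itself was dim, with group means of 5.85 ± 0.04 (SD, n = 3) in Vec control and 5.99 ± 0.03 in VHL control, and where it lies in the transcript was not given in the sources used here, so it does not check the labels. A list of 7 HIF targets was lower in VHL cells for 7 of 7 genes in both media, with a median log2 difference of -2.28 in control and -2.22 in deprived medium. All 7 markers of tubule-derived carcinoma lay above 5.95, against 0 of 5 measured for endothelium and 1 of 6 for blood. Of 8 stromal fibroblast markers 4 lay above it, and the gene means of that list ran from 3.81 to 7.89. In control medium 2 of the 8 were called higher and 1 lower in VHL cells, where 23.1% of all genes were higher and 23% lower. The summed level of that list was 8.89 to 8.95 in Vec control, 8.92 to 9.04 in Vec deprived, 9.36 to 9.41 in VHL control and 9.27 to 9.38 in VHL deprived arrays, so it was higher in VHL cells, and its part in the results was not tested.

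In control medium VHL cells had lower levels of 6 of the 10 enzymes, of COL5A1, of the transmembrane chain COL13A1 and of COL6A3, COL7A1, COL15A1, COL16A1 and COL9A3, and higher levels of 5 of the 6 type IV chains, COL18A1, COL6A1 and PLOD3. This made 21 of 42 members called (50%), 8 higher and 13 lower in VHL cells. Over all genes 46.1% were called in that comparison, 23.1% higher and 23% lower, so the share of members called was near the background. In deprived medium 22 members were called (52.4%), 10 higher and 12 lower, where 47.2% of all genes were called, 24.2% higher and 23% lower. The RNA is of whole cultures, in which fewer expressing cells and less RNA per cell cannot be told apart. Of the members, 19 were called in both media and in the same direction, which is 90.5% of the control calls and 86.4% of the deprived calls.

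The members stood further from the background in size than in number. Of the 42, 10 (23.8%) were called with at least a 2-fold difference in control medium, 2 higher and 8 lower, where 4.26% of all genes were, 2.03% higher and 2.23% lower. In deprived medium the count was again 10 (23.8%), against 4.38% of all genes, 2.19% in each direction. The 8 on the lower side were P4HA1, LOX, LOXL1, LOXL2, COL5A1, COL13A1, COL6A3 and COL7A1, and those on the higher side were COL4A4 and COL4A5. The middle of the list was ordinary: the median absolute log2 difference was 0.153 for members and 0.154 for all genes in control medium, and 0.163 and 0.157 in deprived medium. The groups of 3 arrays did not overlap for 25 members (59.5%) in control medium, against 53.2% of all genes, and for 23 members (54.8%) in deprived medium, against 54.2%.

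**Figure D1:**
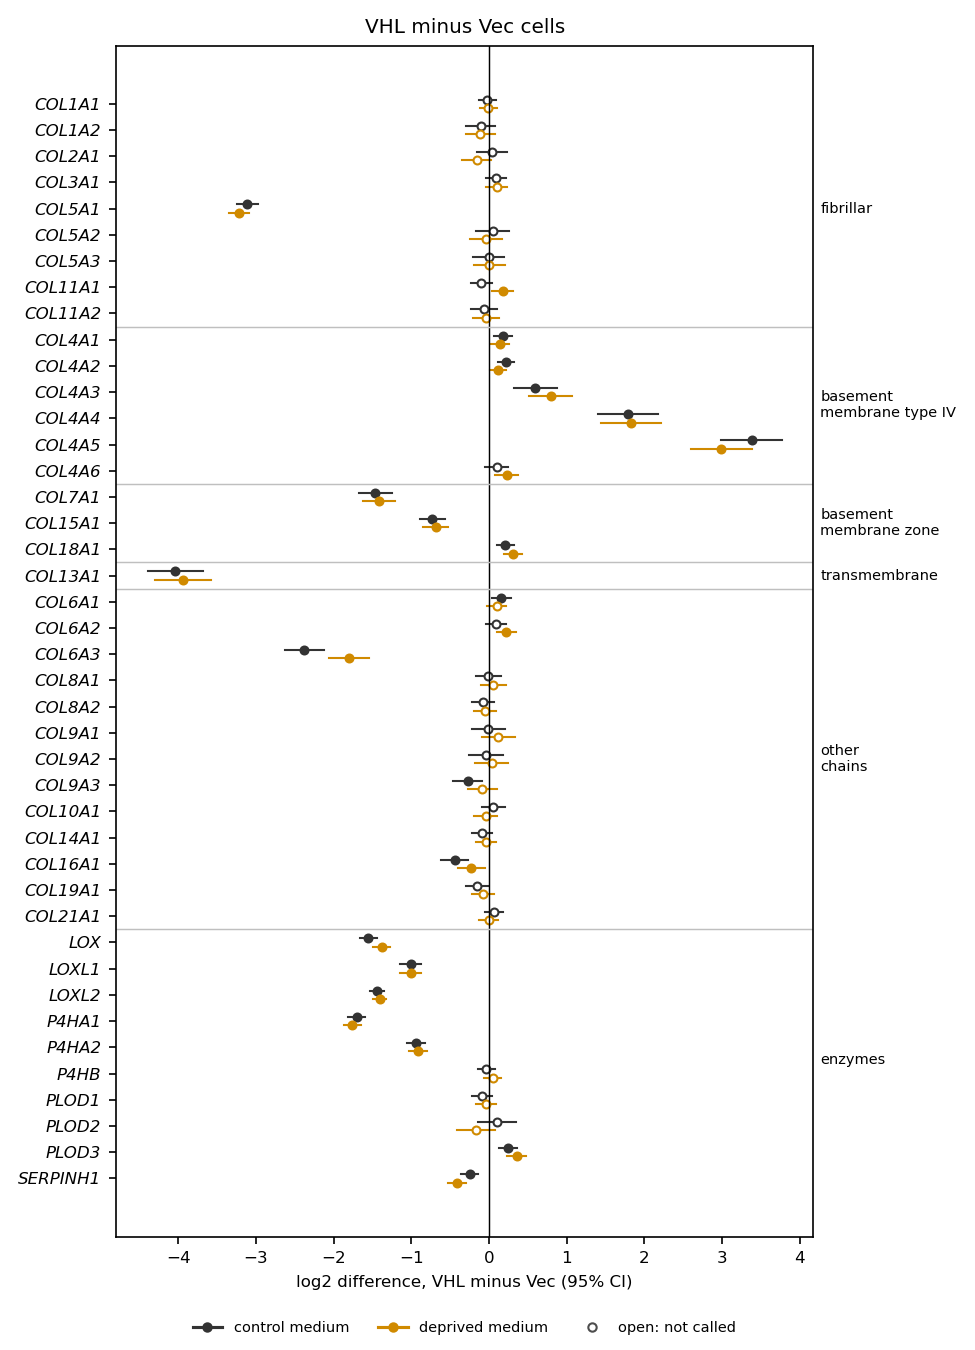
Log2 difference of VHL minus Vec cells for each of the 42 members (horizontal axis, points with 95% confidence intervals from limma) in control medium and in deprived medium, grouped by class, with open points for members not called. COL13A1, COL5A1 and COL6A3 lie furthest to the left, COL4A5 and COL4A4 furthest to the right, and most fibrillar chains lie near 0.

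Among the enzymes 6 were lower, 1 was higher and 3 were not called between the lines, in each medium (70% called). Over all genes 46.1% were called in control and 47.2% in deprived medium, with 23% lower in each. The median log2 difference over the 10 enzymes was -0.59 in control and -0.66 in deprived medium. P4HA1, a catalytic subunit of prolyl 4-hydroxylase, had the largest difference of the 10 probe sets used. Its probe set read 11.55, 11.64 and 11.51 in Vec control, 11.48, 11.51 and 11.54 in Vec deprived, 9.94, 9.80 and 9.86 in VHL control and 9.75, 9.71 and 9.79 in VHL deprived arrays. All 6 Vec arrays lay above all 6 VHL arrays, by far more than the spread within a group. The difference was -1.70 ± 0.05 (log2 ± SE), or 3.25-fold lower in VHL cells, in control medium (limma adjusted p = 2.20e-11), and -1.76 ± 0.05, or 3.39-fold lower, in deprived medium (adjusted p = 1.55e-11).

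P4HA2, the alternative catalytic subunit, read 11.66, 11.54 and 11.69 in Vec control, 11.54, 11.55 and 11.61 in Vec deprived, 10.73, 10.61 and 10.72 in VHL control and 10.66, 10.61 and 10.67 in VHL deprived arrays. The lines did not overlap, and VHL cells were 1.92-fold lower in control medium (log2 -0.94 ± 0.05, limma adjusted p = 9.56e-09) and 1.89-fold lower in deprived medium. P4HB, the subunit both enzymes share, read 12.44, 12.45 and 12.46 in Vec control and 12.35, 12.40 and 12.49 in VHL control arrays, so the lines overlapped. Its difference of -0.03 (95% CI -0.14 to 0.07) was not called in control medium (limma adjusted p = 0.647), nor was the 0.05 in deprived medium (adjusted p = 0.465).

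The lysyl hydroxylases gave mixed results. PLOD3, which also transfers sugars to hydroxylysine, read 11.02, 11.00 and 11.08 in Vec control, 11.07, 11.05 and 10.90 in Vec deprived, 11.29, 11.22 and 11.31 in VHL control and 11.41, 11.36 and 11.32 in VHL deprived arrays. It was the 1 enzyme higher in VHL cells, 1.18-fold in control medium (log2 0.24 ± 0.05, limma adjusted p = 0.00198) and 1.28-fold in deprived medium (0.36, adjusted p = 9.36e-05), with no overlap between lines. PLOD1, which hydroxylates lysines within the helix, differed by -0.08 (95% CI -0.21 to 0.05) in control medium and was not called in either medium. PLOD2, which hydroxylates lysines of the telopeptides at the chain ends, read 11.82, 12.14 and 11.88 in Vec control and 12.16, 12.10 and 11.89 in VHL control arrays. The lines overlapped, and the difference of 0.10 ± 0.11 (95% CI -0.14 to 0.35) was not called (limma adjusted p = 0.506). Its other probe set, 202619_s_at, gave a small difference of the opposite sign, described with the probe sets.

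The cross-linking oxidases were lower in VHL cells without exception among the 3 measured by the rule, in the sets used. LOX read 11.12, 11.16 and 11.16 in Vec control, 11.20, 11.22 and 11.20 in Vec deprived, 9.65, 9.55 and 9.60 in VHL control and 9.75, 9.82 and 9.92 in VHL deprived arrays. Every Vec array was more than 1 log2 unit above every VHL array. The difference was -1.55 ± 0.05, or 2.93-fold lower, in control medium (limma adjusted p = 4.70e-11), and 2.60-fold lower in deprived medium (adjusted p = 1.60e-10).

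LOXL2, which also acts on collagen IV, read 12.16, 12.11 and 12.14 in Vec control, 12.17, 12.18 and 12.18 in Vec deprived, 10.71, 10.68 and 10.70 in VHL control and 10.79, 10.74 and 10.78 in VHL deprived arrays. The replicates lay close together and the lines far apart, and the difference was -1.44 ± 0.04, or 2.72-fold lower, in control medium (limma adjusted p = 1.09e-11) and 2.65-fold lower in deprived medium. LOXL1, best known for its part in elastic fibres, read 9.06, 8.99 and 9.06 in Vec control, 9.04, 9.08 and 9.03 in Vec deprived, 8.06, 7.88 and 8.16 in VHL control and 8.04, 8.06 and 8.03 in VHL deprived arrays. The lines did not overlap, and VHL cells were 2.01-fold lower in each medium (log2 -1.01 ± 0.06 in control medium, limma adjusted p = 2.02e-08).

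SERPINH1, the collagen chaperone, showed a smaller difference. It read 10.97, 10.87 and 10.91 in Vec control, 10.79, 10.86 and 10.96 in Vec deprived, 10.61, 10.66 and 10.73 in VHL control and 10.46, 10.46 and 10.46 in VHL deprived arrays. The lines did not overlap within either medium, and VHL cells were 1.19-fold lower in control medium (log2 -0.25 ± 0.05, limma adjusted p = 0.00148) and 1.33-fold lower in deprived medium (-0.41, adjusted p = 2.37e-05).

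**Figure D2:**
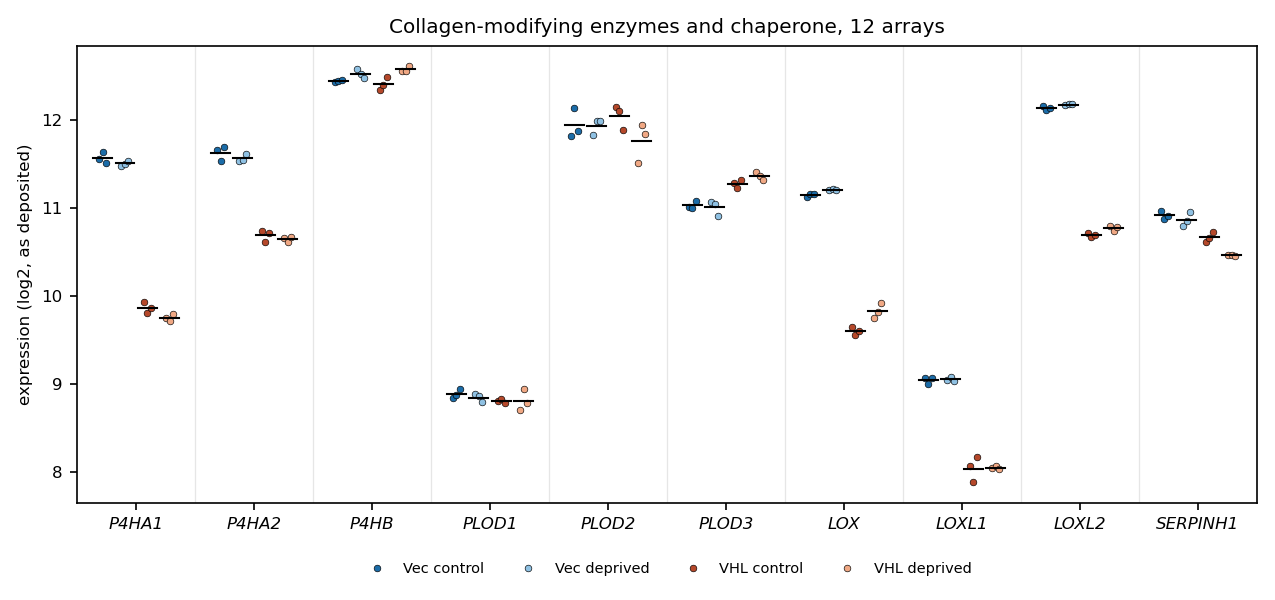
Expression (log2, as deposited) of the 10 collagen-modifying proteins in each of the 12 arrays, with points for arrays coloured by group and black lines for group means of 3. The Vec and VHL arrays of P4HA1, P4HA2, LOX, LOXL1 and LOXL2 are separated by more than their spread, while those of P4HB, PLOD1 and PLOD2 overlap.

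The core of the HIF binding motif is ACGTG or GCGTG, and both were searched on both strands of the RefSeq promoter windows of assembly GRCh38.p14, which run from 250 bases before to 50 bases after each annotated start. The motifs cannot start at the same base, and each can overlap its own reverse complement. A window was found for 32 members, and the members without one are COL1A1, COL1A2, COL2A1, COL3A1, COL5A2, COL6A1, COL8A1, COL9A3, COL14A1 and LOXL2. PLOD2 was not called in the set used, while its set 202619_s_at was called lower in control medium (-0.20, limma adjusted p = 0.00139). The windows of 4 members are shown, 3 of them lower in VHL cells and that of PLOD2, with each match in capitals.
P4HA1: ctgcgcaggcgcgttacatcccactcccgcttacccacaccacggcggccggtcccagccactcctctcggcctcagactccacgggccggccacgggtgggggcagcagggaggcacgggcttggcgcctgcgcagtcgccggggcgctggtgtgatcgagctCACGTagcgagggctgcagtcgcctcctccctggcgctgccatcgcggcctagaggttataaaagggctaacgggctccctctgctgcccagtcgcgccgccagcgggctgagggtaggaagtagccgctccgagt
LOX: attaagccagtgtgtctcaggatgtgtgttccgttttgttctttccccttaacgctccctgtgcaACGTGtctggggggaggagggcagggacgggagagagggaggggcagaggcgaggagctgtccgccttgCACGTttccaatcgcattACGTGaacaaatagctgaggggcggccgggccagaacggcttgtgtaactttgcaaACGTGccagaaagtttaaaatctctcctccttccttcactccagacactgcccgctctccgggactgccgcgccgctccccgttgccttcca
COL5A1: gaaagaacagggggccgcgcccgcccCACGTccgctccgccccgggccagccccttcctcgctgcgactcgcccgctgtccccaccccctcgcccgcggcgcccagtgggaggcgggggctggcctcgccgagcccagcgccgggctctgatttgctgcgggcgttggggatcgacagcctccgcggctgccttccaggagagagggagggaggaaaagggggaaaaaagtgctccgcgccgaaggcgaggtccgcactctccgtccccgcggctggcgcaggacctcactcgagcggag
PLOD2: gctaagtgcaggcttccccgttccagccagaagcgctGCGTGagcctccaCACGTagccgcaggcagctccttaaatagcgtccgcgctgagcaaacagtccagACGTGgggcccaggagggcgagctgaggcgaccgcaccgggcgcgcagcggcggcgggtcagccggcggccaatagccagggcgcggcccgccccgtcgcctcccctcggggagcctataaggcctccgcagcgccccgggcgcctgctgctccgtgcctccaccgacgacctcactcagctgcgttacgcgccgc
The P4HA1 window is chr10:73096817-73097116 on the minus strand and has its ACGTG 86 bases before the start. The LOX window is chr5:122078210-122078509 on the minus strand, the first listed of its 3, and has ACGTG at 185, 116, 98 and 42 bases before the start. That of COL5A1, chr9:134641553-134641852 on the plus strand, the first listed of its 2, has 1 match, 224 bases before the start. The window of PLOD2, chr3:146161135-146161434 on the minus strand, holds ACGTG 200 and 146 bases and GCGTG 213 bases before the start. Of all 35116 windows 21.4% hold ACGTG, 36.5% hold GCGTG and 48.4% hold either, while of the 46 windows of members 26.1% hold ACGTG and 50% hold either. By gene, ACGTG was found in a window of 5 of the 11 members with windows that were lower in VHL cells in control medium (COL15A1, COL5A1, LOX, P4HA1 and SERPINH1), 1 of 7 that were higher (COL4A3) and 2 of 14 not called (COL11A2 and PLOD2). Either motif was found for 7 of the 11 lower, 3 of the 7 higher and 8 of the 14 not called. The counts by gene take a match in any window of the gene, so the shares per window are not a like background. A match describes the letters and shows no binding.

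Fibrillar chains were mostly dim, and in control medium COL5A1 was the 1 of 9 called between the lines (11.1%), where 46.1% of all genes were. COL5A1, a chain of type V collagen that takes part in starting fibrils, read 9.97, 10.03 and 10.03 in Vec control, 9.92, 10.03 and 9.91 in Vec deprived, 6.82, 6.98 and 6.92 in VHL control and 6.66, 6.71 and 6.83 in VHL deprived arrays. The lines were separated by about 3 log2 units, and the VHL arrays remained above the mark for dim probe sets. VHL cells were 8.62-fold lower in control medium (log2 -3.11 ± 0.06, limma adjusted p = 2.99e-13) and 9.31-fold lower in deprived medium (-3.22, adjusted p = 2.56e-13). The other 8 fibrillar chains, COL1A1, COL1A2, COL2A1, COL3A1, COL5A2, COL5A3, COL11A1 and COL11A2, read between 4.51 and 8.11 over all arrays. Their differences in control medium ran from -0.10 to 0.09, with 95% intervals inside -0.29 to 0.26, and none was called in the set used. Other sets of COL1A1 (202310_s_at -1.64, limma adjusted p = 4.86e-08, and 202311_s_at -0.38, adjusted p = 0.0484) and of COL2A1 (213492_at -0.23, adjusted p = 0.0287) were called lower. COL5A2, which assembles with COL5A1 in type V collagen, was dim and differed by 0.05 (limma adjusted p = 0.744). In deprived medium COL11A1 was called with 0.18 (limma adjusted p = 0.0366). That call was lost without Vec deprived replicate 2 or 3 or VHL deprived replicate 1 or 2, where the adjusted p reached 0.161, and in its other set (0.12, adjusted p = 0.194).

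The type IV chains ran the other way. All 6 had higher means in VHL than in Vec cells in both media, with 5 called in control and 6 in deprived medium and medians of 0.41 and 0.51. Over all genes 23.1% were called higher in control and 24.2% in deprived medium. The difference was small for COL4A1 and COL4A2, which form the chain trimer of basement membranes throughout the body, and large for COL4A4 and COL4A5, which with COL4A3 form the trimer of the glomerular and some tubular basement membranes. COL4A5 read 4.95, 4.93 and 4.98 in Vec control, 5.15, 5.12 and 5.16 in Vec deprived, 8.51, 8.43 and 8.06 in VHL control and 7.59, 8.34 and 8.49 in VHL deprived arrays. The Vec arrays were dim and tight, while the VHL arrays were above the mark and had, in deprived medium, the largest spread of any member (SD 0.483, n = 3). VHL cells were 10.4-fold higher in control medium (log2 3.38 ± 0.18, limma adjusted p = 4.90e-09) and 7.97-fold higher in deprived medium (2.99, adjusted p = 1.60e-08). Background signal in the dim group may limit these folds.

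COL4A4 read 5.78, 5.69 and 5.58 in Vec control, 5.85, 5.82 and 5.58 in Vec deprived, 7.68, 6.93 and 7.81 in VHL control and 7.41, 7.59 and 7.73 in VHL deprived arrays. It too was dim in all Vec arrays and higher in every VHL array, by 3.46-fold in control medium (log2 1.79 ± 0.18, limma adjusted p = 1.80e-06) and 3.55-fold in deprived medium. COL4A3 read 5.92, 5.53 and 5.99 in Vec control, 5.88, 5.70 and 6.06 in Vec deprived, 6.42, 6.48 and 6.33 in VHL control and 6.50, 6.64 and 6.89 in VHL deprived arrays. The lines did not overlap, and the difference was 0.60 ± 0.13, or 1.51-fold, in control medium (limma adjusted p = 0.00147) and 0.80, or 1.74-fold, in deprived medium (adjusted p = 0.000143). COL4A6, the partner chain of COL4A5 in some smooth muscle and epithelial basement membranes, was dim in every array. It differed by 0.10 (95% CI -0.05 to 0.25, limma adjusted p = 0.274) in control medium and was called in deprived medium with 0.23 ± 0.07 (adjusted p = 0.0132), a call lost without VHL deprived replicate 3 (0.14, adjusted p = 0.0527) and in its other sets (-0.06 and 0.13).

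COL4A1 read 12.75, 12.79 and 12.86 in Vec control, 12.87, 12.87 and 12.76 in Vec deprived, 13.00, 12.95 and 12.98 in VHL control and 12.90, 13.01 and 13.00 in VHL deprived arrays. COL4A2 read 12.68, 12.65 and 12.71 in Vec control, 12.72, 12.81 and 12.80 in Vec deprived, 12.84, 12.92 and 12.94 in VHL control and 12.88, 12.90 and 12.90 in VHL deprived arrays. Both lay far above the mark for dim probe sets in all groups, with the lines close together but not overlapping. The control-medium differences were 0.18 ± 0.05 for COL4A1 (1.13-fold, limma adjusted p = 0.012) and 0.22 ± 0.05 for COL4A2 (1.16-fold, adjusted p = 0.00131), and the first was lost without Vec control replicate 1 (adjusted p = 0.052). The deprived-medium differences were 0.14 (limma adjusted p = 0.041) and 0.12 (adjusted p = 0.0484). COL4A2 lost its deprived-medium call without any 1 of the 6 arrays (adjusted p up to 0.179) and COL4A1 without Vec deprived replicate 1 or 3 or VHL deprived replicate 2 or 3 (up to 0.154). After quantile normalization both deprived-medium calls were lost, COL4A1 with 0.11 (limma adjusted p = 0.103) and COL4A2 with 0.10 (adjusted p = 0.0892).

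The type IV genes lie in head-to-head pairs, and the first listed RefSeq windows of each pair overlap. The windows of the pairs with the larger differences are shown, with the stretch that both members of a pair share in capitals, read from opposite strands.
COL4A3: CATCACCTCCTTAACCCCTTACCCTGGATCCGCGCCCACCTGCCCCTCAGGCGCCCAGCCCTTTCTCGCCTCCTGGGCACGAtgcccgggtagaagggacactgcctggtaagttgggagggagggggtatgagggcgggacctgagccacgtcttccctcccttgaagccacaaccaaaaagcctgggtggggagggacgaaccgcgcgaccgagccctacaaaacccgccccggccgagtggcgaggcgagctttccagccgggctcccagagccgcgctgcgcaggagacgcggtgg
COL4A4: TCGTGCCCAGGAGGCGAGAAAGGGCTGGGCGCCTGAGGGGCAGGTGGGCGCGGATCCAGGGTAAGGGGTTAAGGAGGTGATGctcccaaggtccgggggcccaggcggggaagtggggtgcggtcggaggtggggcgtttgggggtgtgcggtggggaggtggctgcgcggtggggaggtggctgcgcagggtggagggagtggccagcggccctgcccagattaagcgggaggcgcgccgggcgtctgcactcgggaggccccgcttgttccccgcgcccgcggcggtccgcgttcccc
COL4A5: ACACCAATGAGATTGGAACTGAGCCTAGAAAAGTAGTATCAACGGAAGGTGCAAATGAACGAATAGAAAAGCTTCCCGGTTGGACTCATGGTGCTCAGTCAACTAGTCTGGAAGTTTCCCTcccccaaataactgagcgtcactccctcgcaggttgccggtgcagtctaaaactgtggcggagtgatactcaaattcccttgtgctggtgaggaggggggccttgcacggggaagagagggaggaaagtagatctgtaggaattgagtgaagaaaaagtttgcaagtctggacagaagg
COL4A6: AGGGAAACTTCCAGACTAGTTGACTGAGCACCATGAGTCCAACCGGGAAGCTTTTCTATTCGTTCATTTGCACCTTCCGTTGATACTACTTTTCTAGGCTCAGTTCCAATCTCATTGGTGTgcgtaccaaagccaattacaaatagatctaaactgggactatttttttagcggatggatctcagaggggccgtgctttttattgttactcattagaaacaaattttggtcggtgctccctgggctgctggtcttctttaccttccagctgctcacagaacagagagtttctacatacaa
COL4A3 (chr2:227164374-227164673 on the plus strand) and COL4A4 (chr2:227164156-227164455 on the minus strand) share 82 bases, with starts 419 bases apart. COL4A5 (chrX:108439588-108439887 on the plus strand) and COL4A6 (chrX:108439409-108439708 on the minus strand) share 121 bases, with starts 380 bases apart. That COL4A6 window is the first listed of its 2, and the second, chrX:108438373-108438672, does not overlap the COL4A5 window. The windows of COL4A2 and COL4A1, on chromosome 13, share 226 bases, with starts 127 bases apart. Within the pair of COL4A5 and COL4A6 the control-medium differences were far apart, 3.38 against 0.10, while COL4A1 and COL4A2 were close, 0.18 against 0.22. For COL4A3 and COL4A4 the differences were 0.60 and 1.79, and the first depended on the probe set.

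The 3 chains of the basement membrane zone were all called in both media and not in the same direction. Over all genes 46.1% were called in control and 47.2% in deprived medium. COL7A1, the chain of anchoring fibrils, read 10.02, 9.97 and 10.40 in Vec control, 10.04, 10.05 and 10.14 in Vec deprived, 8.59, 8.74 and 8.67 in VHL control and 8.53, 8.71 and 8.74 in VHL deprived arrays. All Vec arrays exceeded all VHL arrays, and VHL cells were 2.76-fold lower in control medium (log2 -1.46 ± 0.10, limma adjusted p = 4.21e-08) and 2.67-fold lower in deprived medium. COL15A1, which links basement membranes to fibrils beneath them, was dim throughout at 4.85, 4.61 and 4.63 in Vec control, 4.81, 4.85 and 4.59 in Vec deprived, 3.96, 3.98 and 3.97 in VHL control and 4.04, 4.07 and 4.08 in VHL deprived arrays. Its difference of -0.73 ± 0.07 (limma adjusted p = 2.28e-06) therefore lay wholly among values under 5.95. COL18A1, from which endostatin is cut, read 9.18, 9.01 and 9.03 in Vec control, 9.09, 9.10 and 9.04 in Vec deprived, 9.26, 9.31 and 9.30 in VHL control and 9.34, 9.37 and 9.44 in VHL deprived arrays. It was higher in VHL cells without overlap, by 1.16-fold in control medium (0.21 ± 0.05, limma adjusted p = 0.00419) and 1.24-fold in deprived medium (0.31, adjusted p = 0.000263).

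COL13A1, a collagen anchored in the plasma membrane and found at cell adhesions, was the 1 transmembrane chain measured and had the largest fitted difference of the 42 members. It read 10.22, 10.02 and 10.18 in Vec control, 10.07, 10.05 and 10.15 in Vec deprived, 6.23, 6.11 and 5.96 in VHL control and 5.77, 6.04 and 6.67 in VHL deprived arrays. The Vec arrays were more than 3 log2 units above the VHL arrays, which lay near the mark for dim probe sets. VHL cells were 16.4-fold lower in control medium (log2 -4.04 ± 0.17, limma adjusted p = 4.72e-10) and 15.3-fold lower in deprived medium (-3.94, adjusted p = 6.05e-10). Background signal may limit these folds too.

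Of the 13 other chains, 1 was higher, 3 were lower and 9 were not called in control medium. The share called was 30.8%, against 46.1% of all genes. COL6A3, the largest chain of the beaded filaments of type VI collagen, read 8.50, 8.55 and 8.27 in Vec control, 8.19, 8.13 and 8.36 in Vec deprived, 5.93, 5.92 and 6.34 in VHL control and 6.26, 6.48 and 6.54 in VHL deprived arrays. All Vec arrays lay well above all VHL arrays. VHL cells were 5.19-fold lower in control medium (log2 -2.38 ± 0.12, limma adjusted p = 2.59e-09) and 3.48-fold lower in deprived medium (-1.80, adjusted p = 3.63e-08). In control medium 2 of the 3 VHL arrays lay under 5.95, so background signal may limit that fold.

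Its partner chains in type VI collagen were not lower in VHL cells. In control medium COL6A1 was higher by 0.16 (limma adjusted p = 0.0361), and its 0.10 in deprived medium was not called (adjusted p = 0.172). COL6A2 gave 0.09 in control (limma adjusted p = 0.228) and 0.22 in deprived medium (adjusted p = 0.00537). Its other set, 213290_at, turned this over, with 0.26 called in control (limma adjusted p = 0.0155) and 0.0054 not called in deprived medium (adjusted p = 0.965). The COL6A1 call was lost without Vec control replicate 2 or 3 or VHL control replicate 2 or 3 (adjusted p up to 0.148) and in its other probe sets. COL16A1, a chain that sits on the surface of fibrils, read 6.60, 6.49 and 6.76 in Vec control and 6.18, 6.09 and 6.26 in VHL control arrays, against 6.71, 6.68 and 6.43 in Vec deprived and 6.42, 6.35 and 6.37 in VHL deprived arrays. The lines did not overlap in control medium and nearly met in deprived medium. VHL cells were 1.36-fold lower in control medium (log2 -0.44 ± 0.08, limma adjusted p = 0.000525) and 1.17-fold lower in deprived medium (-0.23, adjusted p = 0.0363). The second call was lost without Vec deprived replicate 1 or 2 or VHL deprived replicate 2 or 3 (adjusted p up to 0.138). COL9A3 was dim and called in control medium with -0.27 (limma adjusted p = 0.0207), a call lost without Vec control replicate 3 (-0.16, adjusted p = 0.0972) or VHL control replicate 2 (adjusted p = 0.0554). The 8 chains of this class called in neither medium, COL8A1, COL8A2, COL9A1, COL9A2, COL10A1, COL14A1, COL19A1 and COL21A1, read between 4.34 and 7.88 over all arrays in the sets used. A second set of COL8A1, 214587_at, was called in deprived medium (0.28, limma adjusted p = 0.0286), where the set used gave 0.06.

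**Figure D3:**
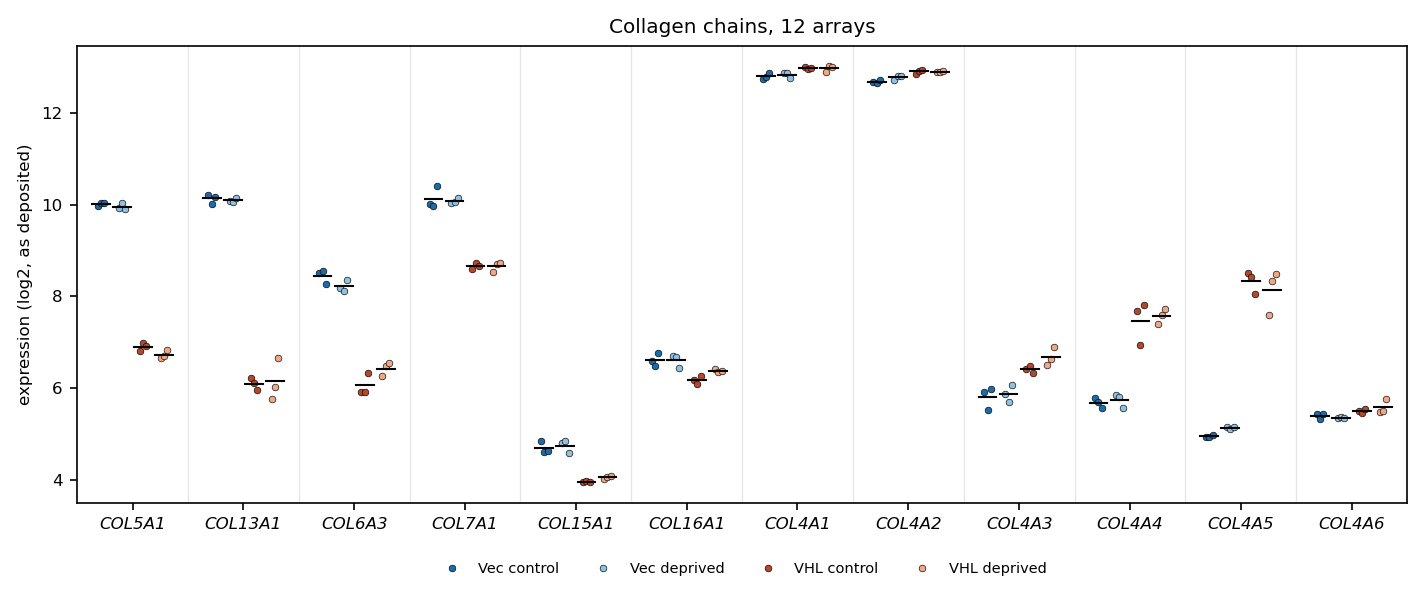
Expression (log2, as deposited) of 12 collagen chains in each of the 12 arrays, with points for arrays coloured by group and black lines for group means of 3. COL5A1, COL13A1, COL6A3 and COL7A1 are lower in every VHL array than in any Vec array, and COL4A4 and COL4A5 are higher.

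The probe sets of a member did not always give the same size of difference. Adjusted p-values of single sets were taken over all 19064 probe sets naming 1 gene. All 3 sets of COL13A1 were lower in VHL cells in control medium, by -4.04, -1.16 and -0.63, as were all 3 of COL5A1 (-3.11, -1.91 and -3.52), both of COL7A1 (-1.46 and -1.75) and all 3 of LOX (-1.55, -1.76 and -0.43). Of the 3 sets of LOXL2, 2 were called lower, and the remaining set gave -0.08. Both sets were higher for COL4A1 (0.18 and 0.19), COL4A2 (0.22 and 0.43) and COL18A1 (0.21 and 0.24).

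Other members depended on the probe set. COL4A3 had 7 sets, 3 of them called higher, and set 222073_at gave a larger difference than the set used here, 2.58. It read 3.93, 3.79 and 3.91 in Vec control, 3.97, 3.94 and 3.90 in Vec deprived, 6.53, 6.47 and 6.36 in VHL control and 6.33, 6.58 and 6.66 in VHL deprived arrays, so it was dim in Vec cells and clear of the mark in VHL cells. COL1A1, the main chain of type I collagen, was not called with its highest-mean set (-0.02), while set 202310_s_at was lower in VHL cells by -1.64 (limma adjusted p = 4.86e-08). That set read 7.10, 7.04 and 7.15 in Vec control, 6.63, 6.78 and 6.54 in Vec deprived, 5.74, 5.33 and 5.31 in VHL control and 5.13, 5.46 and 5.34 in VHL deprived arrays, with no overlap between lines. Its remaining sets gave -0.38 (adjusted p = 0.0484) and -0.06, so the level of COL1A1 between the lines is uncertain here. PLOD2 set 202619_s_at read 11.54, 11.51 and 11.49 in Vec control and 11.30, 11.32 and 11.30 in VHL control arrays. This set gave -0.20 in control (limma adjusted p = 0.00139) and -0.18 in deprived medium (adjusted p = 0.00352), in contrast to the wider spread of the set with the higher mean.

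**Figure D4:**
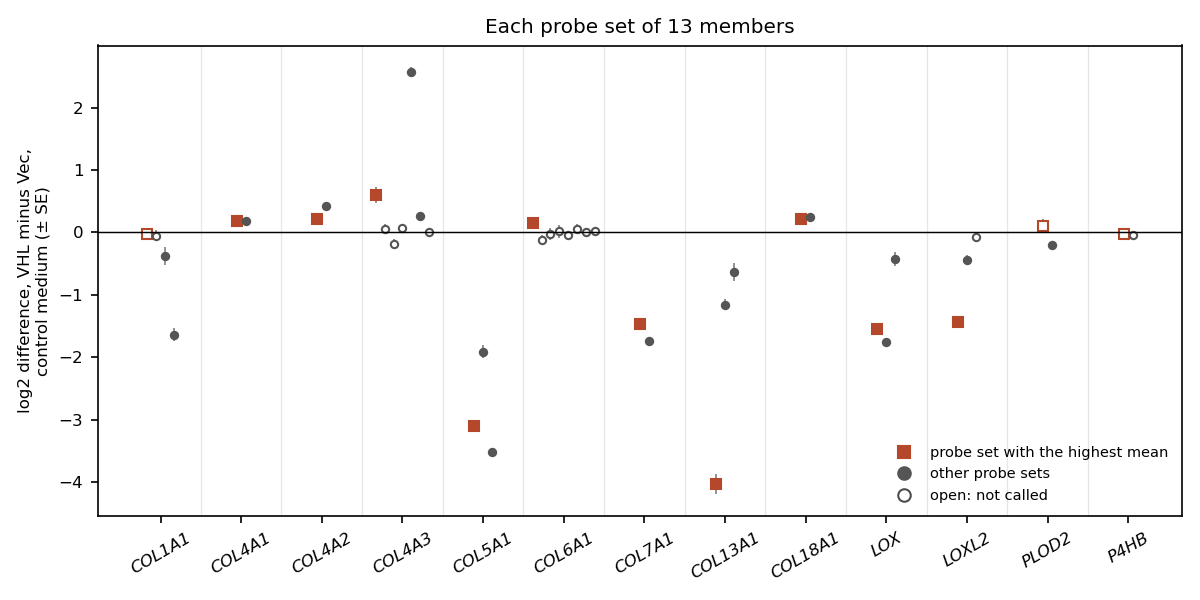
Log2 difference of VHL minus Vec cells in control medium (± SE) for every probe set of 13 members, with squares for the set with the highest mean and open symbols for sets not called. The sets of COL5A1, COL7A1 and COL13A1 lie below 0 throughout, while those of COL1A1 and COL4A3 spread from near 0 to clear differences. Those of PLOD2 lie close to 0 on either side.

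Few members differed after 6 h of cystine deprivation. In Vec cells 0 of 42 members were called, and 0 had an unadjusted limma p under 0.05, where 4.18% of all genes were called. Differences ran from -0.21 for COL6A3 to 0.19 for COL4A5, with every 95% interval inside -0.47 to 0.58 and the smallest adjusted p at 0.340. The groups did not overlap for 5 members (11.9%), against 22.7% of all genes.

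In VHL cells 3 members were called (7.14%), 2 higher and 1 lower, where 11.6% of all genes were called, 6.16% higher and 5.48% lower. After each array was centred on its median, the split over all genes moved from 737 higher and 655 lower to 550 higher and 873 lower, and that of the members to 1 higher and 2 lower. LOX rose by 0.23 ± 0.05 (1.18-fold, limma adjusted p = 0.0104), from 9.65, 9.55 and 9.60 to 9.75, 9.82 and 9.92, without overlap. The list of 7 HIF targets moved in the same cells, with 4 of 7 called higher, a median of 0.17 and a summed level of 11.69 to 11.83 in control and 12.12 to 12.20 in deprived arrays, and its part in the LOX result was not tested. In Vec cells 1 of the 7 was called higher. The LOX call held with any 1 array left out, and was lost when the VHL groups were fitted alone (adjusted p = 0.0551) and in the dim set 213640_s_at (0.10, adjusted p = 0.637). LOX set 204298_s_at had group means of 7.88 in VHL control and 8.33 in VHL deprived arrays. In Vec cells its means were 9.65 in control and 9.85 in deprived arrays. P4HB rose by 0.16 ± 0.05 (1.12-fold, limma adjusted p = 0.0481), from 12.35, 12.40 and 12.49 to 12.55, 12.57 and 12.61. SERPINH1 fell by 0.21 ± 0.05 on the log2 scale (limma adjusted p = 0.0253), from 10.61, 10.66 and 10.73 to 10.46 in each array. The P4HB call was lost without each array but VHL control replicate 3 (adjusted p 0.0864 to 0.172) and the SERPINH1 call without each but VHL control replicate 1 (0.059 to 0.0757). The second probe set of P4HB gave -0.06, so its direction rests on the set used.

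These 3 members are the shared subunit of prolyl 4-hydroxylase, a cross-linking oxidase and a chaperone, and no collagen chain was called. In Vec cells the same members differed by 0.06 for LOX (limma adjusted p = 0.624), 0.08 for P4HB (adjusted p = 0.439) and -0.05 for SERPINH1 (adjusted p = 0.730). The other 39 members ran from -0.28 to 0.36 in VHL cells. At the upper end was COL6A3 with 0.36 ± 0.12 (95% CI 0.11 to 0.62, limma adjusted p = 0.0658), which was called without VHL control replicate 3 (0.50, adjusted p = 0.0105), and at the lower end PLOD2 with -0.28 (95% CI -0.53 to -0.03, adjusted p = 0.131). COL5A1 gave -0.17 (limma adjusted p = 0.0881), which was called after median centring (-0.20, adjusted p = 0.0453) and after quantile normalization (-0.20, adjusted p = 0.049). The groups did not overlap for 13 members (31%), against 30.6% of all genes.

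Whether the lines responded differently was tested as the difference of the responses, VHL minus Vec. Of the 42 members 0 were called by limma and 3 had an unadjusted p under 0.05, where 0.134% of all genes were called. These 3 were COL6A3 with 0.58 ± 0.17 (95% CI 0.22 to 0.94, limma adjusted p = 0.298), COL11A1 with 0.27 (adjusted p = 0.354) and LOX with 0.17 (adjusted p = 0.452). A different response of LOX, P4HB or SERPINH1 in the lines was thus not shown. Over all members the difference of responses ran from -0.39 to 0.58.

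**Figure D5:**
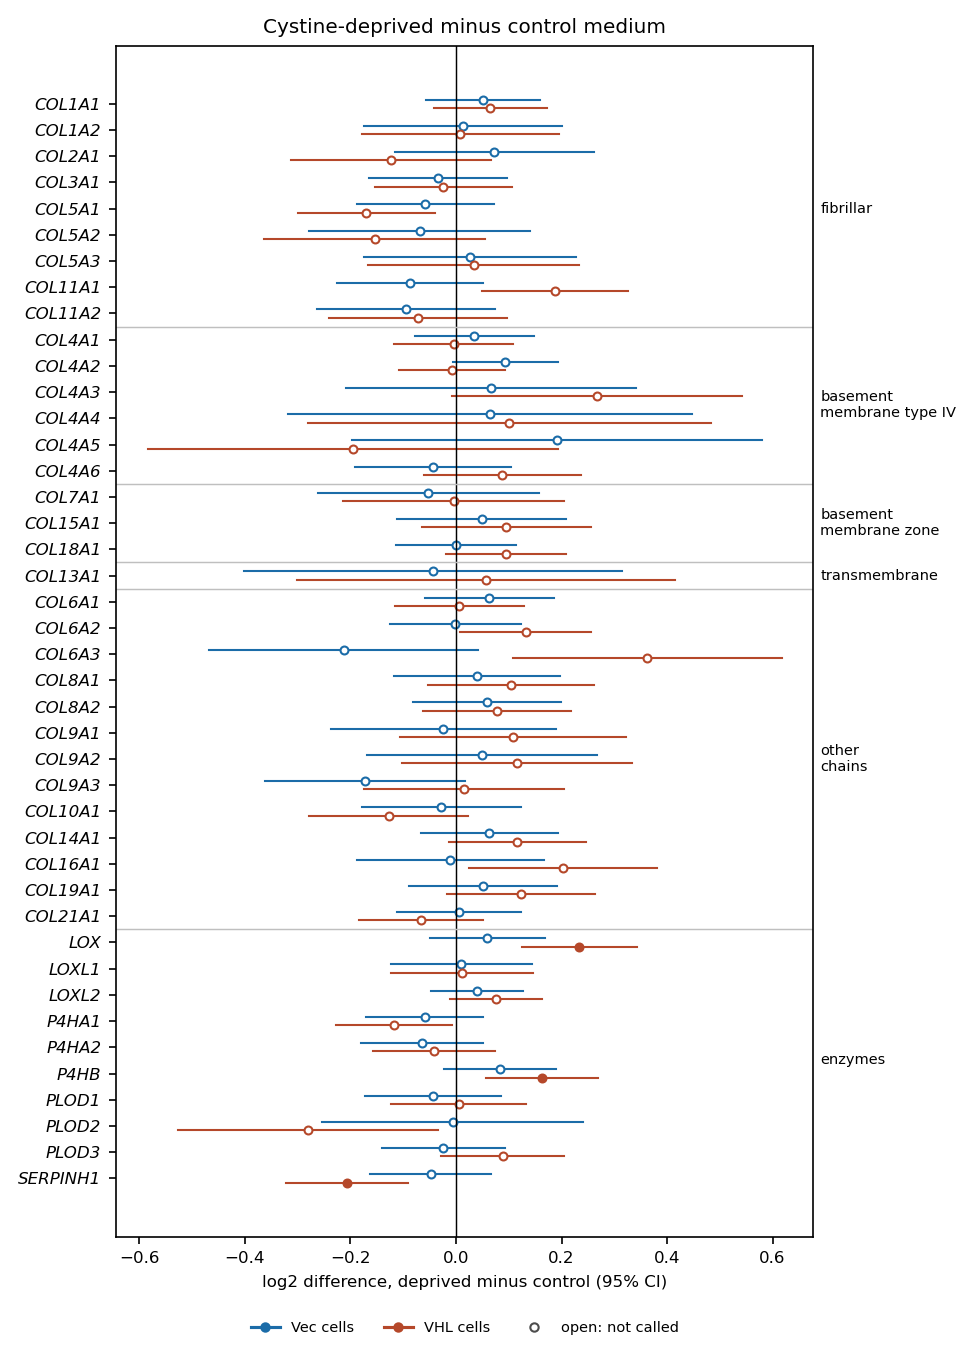
Log2 difference of deprived minus control medium for each of the 42 members (horizontal axis, points with 95% confidence intervals from limma) in Vec and in VHL cells, grouped by class, with open points for members not called. The filled points are LOX, P4HB and SERPINH1 in VHL cells, and all points lie between -0.28 and 0.36.

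Genes that serve collagen outside the 42 members differed between the lines in both directions. Of 16 genes for processing and folding, 12 were measured, and in control medium 6 were higher and 2 lower in VHL cells, where 23.1% of all genes were higher and 23% lower. P3H2, a prolyl 3-hydroxylase active on type IV collagen, was higher by 0.60 and FKBP14, a prolyl isomerase of the endoplasmic reticulum, by 0.64, while TMEM38B, a cation channel of that compartment, was lower by -0.36. Of 15 genes for secretion and cleavage, 14 were measured, with 6 higher and 4 lower. ADAMTS3, a procollagen N-proteinase, was higher by 1.24 ± 0.06. BMP1, which cuts the C-propeptide, and TLL2, another tolloid proteinase, were lower by -0.63 and -1.03. SEC23A and MIA3, which act in the export of large procollagen cargo, were higher by 0.73 and 0.45. Of 15 receptors, uptake and fibril partner genes, 13 were measured, with 2 higher and 3 lower, among them fibronectin (FN1), higher by 1.48 ± 0.05, and TGFBI, which binds collagen, lower by -0.70. In deprived medium the counts were 5 higher and 3 lower, 4 and 4, and 4 and 4, where 24.2% of all genes were higher and 23% lower. Several of these counts lie near the shares over all genes.

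With deprivation 0 genes of these lists were called in Vec cells, where 4.18% of all genes were. In VHL cells 11.6% of all genes were called. Of the lists, P3H4, which acts with lysyl hydroxylase, was higher by 0.16 (limma adjusted p = 0.0478) and FKBP14, SEC23A and SEC24D were lower, by -0.18, -0.61 and -0.65 (adjusted p from 0.00744 for SEC23A to 0.043 for FKBP14). None of the receptors and partners was called, nor was any gene of the lists in the difference of the responses.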

How the data were processed

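The values used are log2 expression values, as deposited by the authors for 22215 probe sets and 12 arrays. The log2 unit was read from their range, 3.26 to 14.79, and how the authors normalized is not given in the sources used here. Of the probe sets 19064 named 1 gene, 1043 several and 2108 none, and symbols were brought up to date through RefSeq (GRCh38.p14) for 19052. No scaling or low-value filter was added, and the number of arrays limits the precision.

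All 12 arrays entered a single limma 3.58.1 model (lmFit and eBayes, R 4.3.3) with a mean for each group, with 8 residual degrees of freedom, 12.7 after moderation. Tests were two-sided and checked on simulated data. The members, the lists and the naming rule were chosen with earlier results of these data known. By that rule, values in all arrays are given for members called in at least 1 of the 5 comparisons with an absolute log2 difference of at least 0.3. Values of other members and of single probe sets were singled out after they were seen. No array duplicated another. Residuals of arrays sharing a replicate number correlated between -0.268 and 0.235 (median 0.0526, 18 pairs), so the arrays were treated as unpaired. Only sets naming a single gene were used.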

Additional observations from a re-analysis of the deposited data

How the results depend on the processing

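The alternatives were quantile normalization, median centring, averaging over probe sets, each probe set alone and no probe sets ending in _x_at or _s_at. Further settings were genes at or under the lower quartile left out, a robust variance trend, the compared groups alone, a replicate block and each array left out. Of the 46 member differences called, 35 kept call and direction at every setting that kept the probe set, and of 164 not called, 5 became called at some such setting. Members called in VHL cells after deprivation numbered 0 without _x_at and _s_at sets, 1 with the compared groups alone and 1 to 3 with an array left out. Between the lines they numbered 12 in deprived medium without those sets, and 19 to 21 in control and 18 to 20 in deprived medium with an array left out. The fewer members tested without those sets lower these counts by construction.

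Over all genes, the calls without _x_at and _s_at sets numbered 233 for deprivation in Vec cells, 771 in VHL cells, 3427 between lines in control and 3505 in deprived medium. With the compared groups alone they were 311 in Vec and 835 in VHL cells, and a robust variance trend gave 45 for the difference of responses. With an array left out they ranged from 253 to 303, from 764 to 1302, from 11 to 16, from 5085 to 5274 and from 5226 to 5416, in the order Vec deprivation, VHL deprivation, difference of responses, lines in control and lines in deprived medium. The causes were not tested.

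With the replicate block, members called numbered 0 in Vec and 2 in VHL cells after deprivation (P4HB was lost), 0 for the difference of responses, and 21 between lines in each medium (COL4A1 in deprived medium was lost, limma adjusted p = 0.0585). Residuals of arrays with other numbers correlated between -0.350 and 0.291 (median -0.0179, 36 pairs), a range that overlaps that of equal numbers.

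Signs reversed in other probe sets, for causes not tested. P4HB with deprivation in VHL cells gave -0.062 in 200656_s_at. Between lines in control medium, COL2A1 gave -0.23 in 213492_at and without _s_at and _x_at sets, COL4A3 -0.18 in 216367_at, PLOD2 -0.20 in 202619_s_at, and COL6A1 -0.12, -0.045 and -0.024 in 212091_s_at, 212937_s_at and 212940_at (also -0.024 without _s_at and _x_at sets). In deprived medium, COL4A3 gave -0.014 in 216367_at and -0.042 in 216893_s_at, COL4A6 -0.057 in 210945_at and LOXL2 0.048 in 202999_s_at.

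Levels under 5.95, as for 13 of the 42 members, may carry little signal over background, which was not measured. Small or absent differences there are therefore not evidence of equal expression.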
